A study of Mus musculus with 14 samples.

Results

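Phase II conjugation enzymes attach glutathione, glucuronic acid or sulfate to reactive or fat-soluble molecules. The genes described are the protein-coding genes named as glutathione transferases (Gst of the alpha, kappa, mu, omega, pi, theta and zeta classes, and Mgst1 to Mgst3), UDP-glucuronosyltransferases (Ugt1a and Ugt2) or sulfotransferases (Sult) with at least 100 counts summed over 14 libraries. Of 54532 genes counted, 65 carried such a name and 39 reached that minimum, comprising 23 glutathione transferases (GSTs), 8 UDP-glucuronosyltransferases (UGTs) and 8 sulfotransferases (SULTs). Sult6b1 with 109 counts and Gsta2 with 139 lay just above the minimum, and Gsto2 with 78 and Ugt2b1 with 60 just below it. Of the 26 genes left out, 14 had 0 counts, among them 8 genes of the Sult2a subfamily.

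RNA was sequenced from scraped ileum mucosa of 7 WT and 7 IKO mice, 1 library per mouse. WT mice carried floxed NCoR1 alleles (NCoR1 flox/flox) and IKO mice carried the same alleles plus a Cre recombinase under the villin promoter, which is active in intestinal epithelial cells (IECs). All were male, 7 to 8 weeks old by the study's methods when feeding began, and received a high-fat diet (HFD) with 60% of its energy as fat for 15 weeks. The caption of the study's feeding scheme gives an older age and a period on chow before the HFD. The comparison asked how the ileum mucosa of HFD-fed mice differed when the epithelium lacked NCoR1, a corepressor of nuclear receptors.

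GSTs join glutathione to electrophiles, which include xenobiotics and the aldehydes and peroxides of oxidized lipids, and the membrane-bound Mgst enzymes carry out related reactions. UGTs of the endoplasmic reticulum use UDP-glucuronic acid to make bilirubin, steroids, bile acids and drugs soluble, while cytosolic SULTs transfer sulfate from PAPS to phenols, catecholamines and sterols. The enterocyte is a site of first-pass metabolism, and several of these genes are known targets of NRF2, the aryl hydrocarbon receptor, PXR, CAR and PPARα.

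Counts per library ranged from 14749669 to 21557468, and the mitochondrial genome supplied 50.3% of them in IKO 4, 23.9% in WT 3 and 3.49% to 10.3% elsewhere. Levels are given as CPM (counts relative to library sizes scaled by TMM factors), and changes as log2 fold changes of IKO over WT, with p-values from the quasi-likelihood test of edgeR, adjusted by Benjamini-Hochberg over the 13846 genes tested. Ncor1 itself had 106.4, 129.7 and 194.5 CPM in the lowest, median and highest WT mouse and 31.7, 47.7 and 63.9 CPM in IKO mice. Its groups did not overlap (log2 fold change -1.41, standard error 0.18, adjusted p = 0.00051), and the counts cover the whole gene and all cells of the mucosa. Of 8 absorptive enterocyte markers, 0 passed the test (median log2 fold change 0.32), with a summed level of 21350 to 103200 CPM in WT and 48060 to 83710 CPM in IKO mice. Markers of B and plasma cells summed to 124.1 to 786.7 CPM in WT and 88.9 to 428.6 CPM in IKO mice, so the scraped tissue held more than the epithelial cells named in its label. All 6 crypt stem and cycling cell markers had log2 fold changes below 0 (median -1.04, 0 called), with sums of 120.7 to 350.6 CPM in WT and 85.8 to 220.0 CPM in IKO mice. The same held for all 6 markers of B and plasma cells (median -1.72, 0 called), all 5 tested fibroblast markers (median -2.0, 0 called) and all 6 of smooth muscle (median -3.10, 0 called), the last with 10860 CPM in WT 4 alone. Fibroblast markers also summed highest in WT 4, at 354.0 CPM. The other WT mice had at most 62.9 CPM and IKO mice 8.32 to 44.7 CPM. The part of these cells in the results for the members was not tested. In such bulk RNA, a change in the number of cells of a type and a change in RNA per cell cannot be told apart.

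Of the 39 members, 36 passed the filter on low counts and were tested. In IKO mice 13 of them rose and 0 fell at an adjusted p under 0.05, where 4.38% of all genes tested rose and 4.28% fell. The 13 were 12 of 22 GSTs and Sult1d1 among 6 SULTs, while 0 of 8 UGTs passed in either direction (0 of the 8 also at an unadjusted p under 0.05, and 0 with DESeq2). At the adjusted threshold, 0 of 8 lies near the share of all genes tested. At an unadjusted p under 0.05, 1651 of the 13846 genes tested were higher and 2562 lower. With DESeq2, 1191 genes rose and 1387 fell at an adjusted p under 0.05. The median log2 fold change was 0.85 for GSTs, 0.22 for UGTs and 0.76 for SULTs, beside -0.09 for all genes tested. Altogether 32 of the 36 had a log2 fold change above 0. The 13 that rose did so by 1.63 to 4.64 times, and for each of them 7 of 7 IKO mice were above the WT median. The values of IKO and WT mice did not overlap in 5 of the 36 (Gsta4, Gstk1, Gstm4, Gsto1 and Gstp1), all with IKO above WT. In all genes tested, 1.83% lay entirely above and 1.26% entirely below WT. The number of members that rose was 8 without IKO 2, and 9 without both WT 3 and IKO 4, the libraries with the most mitochondrial counts. It was 7 with library size alone in place of TMM factors, an alternative chosen after seeing the data, and 7 with the sample number as a replicate block. The TMM factors ran from 0.931 to 1.53 in WT and from 0.579 to 0.967 in IKO mice.

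**Figure D1:**
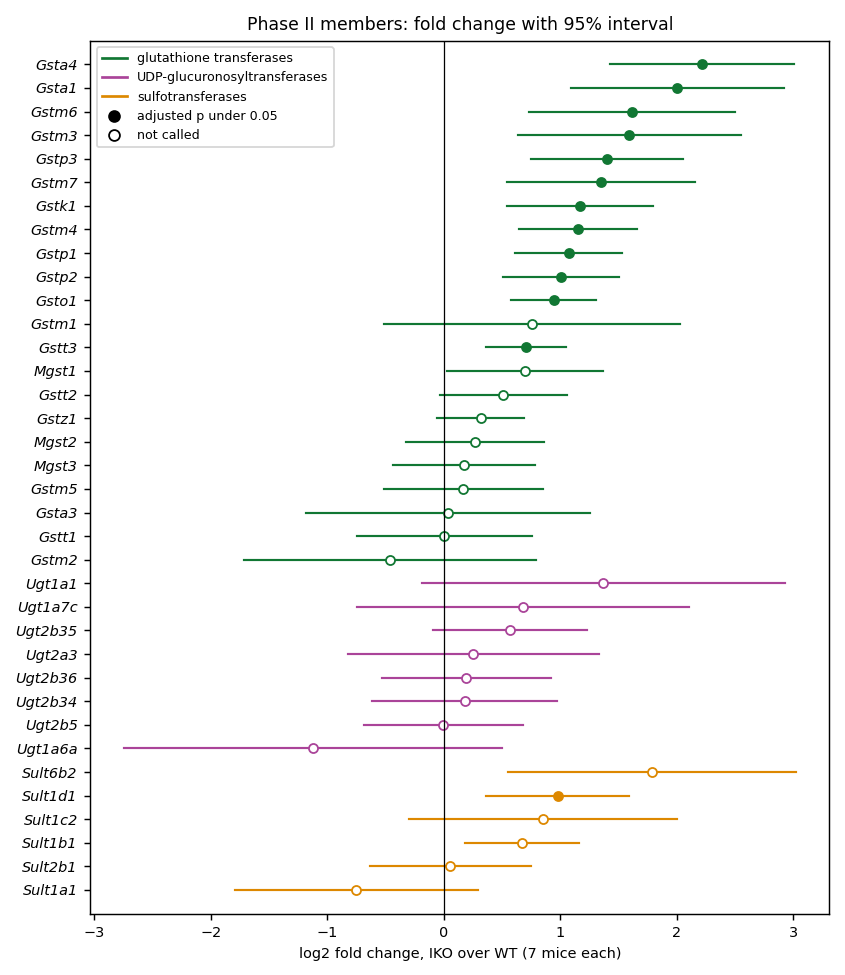
Log2 fold change (horizontal axis, IKO over WT, 7 mice each) of the 36 tested members, grouped by family on the vertical axis, with lines for the 95% interval and filled points for an adjusted p under 0.05. The 12 filled GST points lie between 0.71 and 2.21, the 8 UGT points are open and their intervals span 0, and Sult1d1 is the filled SULT point.

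Alpha class GSTs handle bulky organic hydroperoxides and alkenals, and Gsta4 is best known for conjugating 4-hydroxynonenal, an aldehyde from lipid peroxidation. Gsta4 had 11.8, 17.6 and 26.9 CPM in the lowest, median and highest WT mouse and 38.4, 68.8 and 191.0 CPM in IKO mice. Every IKO mouse was above every WT mouse, with IKO 1 (149.3 CPM) and IKO 2 (191.0 CPM) far above the other IKO mice. This difference of 2.21 on the log2 scale (standard error 0.37, adjusted p = 0.00407) was the largest among the tested members. Gsta1, a close neighbour of Gsta4 on chromosome 9, had 15.9, 26.4 and 63.2 CPM in WT and 41.8, 84.98 and 318.8 CPM in IKO mice. The groups overlapped only through WT 2, the highest WT mouse, which exceeded IKO 3. Gsta1 rose by 2.01 on the log2 scale (standard error 0.43, adjusted p = 0.0132), or by 1.58 (adjusted p = 0.0221) without IKO 2.

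Gsta2, next to Gsta1, did not pass the filter on low counts, at 0 to 0.157 CPM in WT and 0.402 to 1.93 CPM in IKO mice. It had 11 counts over all WT mice and 128 over all IKO mice, so it reached the 100-count minimum through the IKO mice, and its values are given as a description only. Gsta3 lay at 0.272, 1.03 and 6.51 CPM in WT and 0.746, 1.75 and 3.10 CPM in IKO mice (log2 fold change 0.04, adjusted p = 0.974). In an annotation of the same genome (GENCODE M21), 80.6% of the 100-base words in Gsta1 transcripts also occurred in transcripts of other genes, mostly the predicted gene Gm3776, against 28.4% for Gsta2 and 0% for Gsta3 and Gsta4. Reads of Gsta1 and Gsta2 therefore cannot be told fully apart from those of their copies, and how reads that fit several genes were counted is not given in the sources used here.

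The mu class genes form an array of 7 members on chromosome 3 from 107895821 to 108044894 (mm10), a stretch of 149.1 kb. Of these, 4 rose in IKO mice. Gstm3 had 6.62, 17.8 and 38.6 CPM in WT and 22.0, 57.3 and 137.7 CPM in IKO mice (log2 fold change 1.59, standard error 0.45, adjusted p = 0.0420). Gstm6 had 1.81, 6.02 and 12.8 CPM in WT and 8.37, 18.2 and 34.7 CPM in IKO mice (log2 fold change 1.62, standard error 0.42, adjusted p = 0.0291). Both overlapped between the genotypes because some WT mice, among them WT 2 and WT 5, exceeded IKO 3. Gstm7 was low, with 0.612, 2.90 and 4.50 CPM in WT and 3.28, 7.22 and 9.76 CPM in IKO mice (log2 fold change 1.35, standard error 0.38, adjusted p = 0.0417). Gstm4 held a narrow range in WT, 3.94 to 5.39 CPM with a median of 4.80, and all IKO mice were above it at 5.62, 10.4 and 18.3 CPM (log2 fold change 1.15, standard error 0.24, adjusted p = 0.0116). Of the 14 fits that left out 1 mouse, Gstm3 no longer passed in 9 (without WT 1, WT 3, WT 4, WT 7, IKO 1, IKO 2, IKO 4, IKO 5 or IKO 7), with adjusted p values up to 0.0829. Gstm7 no longer passed in 8 (without WT 1, WT 4, WT 6, WT 7, IKO 1, IKO 2, IKO 5 or IKO 7), up to 0.0868, and Gstm6 in 5 (without WT 1, WT 3, IKO 2, IKO 5 or IKO 7), up to 0.0586. Gstm4 passed in all 14.

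Gstm1, an abundant mu enzyme of the liver, gave a different picture. Its level was 8.58, 10.4 and 121.2 CPM in WT and 17.4, 45.5 and 87.0 CPM in IKO mice (log2 fold change 0.76, standard error 0.60, adjusted p = 0.406). WT 4 alone held 121.2 CPM, against at most 19.97 CPM in the other WT mice, and in a fit without WT 4 it reached a log2 fold change of 2.0 (adjusted p = 0.00439). WT 4 also stood out for Gstm2 at 18.1 CPM, where the other WT mice had at most 4.78 CPM. That library had a summed level of 6 smooth muscle markers of 10860 CPM, against at most 62.4 CPM in the other WT mice and 4.53 to 795.8 CPM in IKO mice. Its 5 enteric neuron and glia markers summed to 134.3 CPM, against at most 4.62 CPM in the other WT mice. The part of these cells in the result for Gstm1 was not tested. Gstm2 differed by -0.46 on the log2 scale (adjusted p = 0.623) and Gstm5 by 0.17 (adjusted p = 0.753).

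Pi class enzymes are the typical GSTs of many epithelia, and all 3 members, which lie within 24.0 kb on chromosome 19, rose in IKO mice. Gstp1 had 82.5, 106.3 and 145.6 CPM in WT and 160.2, 226.3 and 387.7 CPM in IKO mice, without overlap (log2 fold change 1.07, standard error 0.22, adjusted p = 0.00982). Gstp2 had 5.80, 6.73 and 11.9 CPM in WT and 10.2, 14.8 and 24.9 CPM in IKO mice (log2 fold change 1.01, standard error 0.24, adjusted p = 0.0194). Gstp3 had 2.90, 3.15 and 7.61 CPM in WT and 5.43, 9.73 and 20.2 CPM in IKO mice (log2 fold change 1.40, standard error 0.31, adjusted p = 0.0146). A single WT mouse reached into the IKO range in each of the last pair, WT 5 for Gstp2 and WT 3 for Gstp3. Transcripts of Gstp2 shared 46.9% of their 100-base words with other genes, mostly Gstp1, and Gstp1 shared 25.1%, so that part of the Gstp2 signal could be read from either. Gstp3 shared 0%.

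Gsto1, the omega enzyme that reduces dehydroascorbate and protein mixed disulfides, was among the most abundant members. It had 198.8, 267.4 and 317.6 CPM in WT and 408.5, 515.9 and 638.7 CPM in IKO mice. The lowest IKO mouse was well above the highest WT mouse (log2 fold change 0.95, standard error 0.17, adjusted p = 0.00619). Gstk1, the kappa enzyme of mitochondria and peroxisomes, had 11.4, 34.0 and 48.3 CPM in WT and 52.2, 61.9 and 108.3 CPM in IKO mice. Its groups did not overlap either (log2 fold change 1.17, standard error 0.30, adjusted p = 0.0277), but the call was lost in 4 of the 14 fits that left out 1 mouse. The adjusted p was 0.0540 without WT 1, 0.0607 without WT 7, 0.0538 without IKO 1 and 0.0545 without IKO 2.

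Of the 3 theta class members, which lie within 63.3 kb on chromosome 10, only Gstt3 passed the test. Gstt3 had 16.5, 22.1 and 28.2 CPM in WT and 26.9, 35.3 and 50.0 CPM in IKO mice (log2 fold change 0.71, standard error 0.16, adjusted p = 0.0175). WT 2 was the only WT mouse above the lowest IKO mouse. For Gstt2 the difference was 0.51 on the log2 scale (adjusted p = 0.189), and for Gstt1 its 95% interval ran from -0.75 to 0.75. The zeta enzyme Gstz1, which isomerizes maleylacetoacetate in tyrosine breakdown, had 19.4, 27.6 and 32.9 CPM in WT and 22.5, 28.3 and 44.5 CPM in IKO mice (log2 fold change 0.32, adjusted p = 0.231).

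The microsomal enzymes Mgst1, Mgst2 and Mgst3 are membrane proteins with peroxidase activity, and Mgst2 and Mgst3 can also make leukotriene C4. None of the 3 passed the test. Mgst3 had 161.1, 243.3 and 562.6 CPM in WT and 257.3, 280.3 and 633.9 CPM in IKO mice (log2 fold change 0.17, 95% interval -0.44 to 0.79). Mgst1 had 119.3, 256.6 and 432.9 CPM in WT and 143.6, 405.1 and 694.8 CPM in IKO mice (log2 fold change 0.70, 95% interval 0.03 to 1.37, adjusted p = 0.150). Mgst2 had a log2 fold change of 0.27 (95% interval -0.32 to 0.86). All 3 intervals included values of the size seen in Gstt3, so a rise of that size was not shown to be absent. Leaving the microsomal enzymes aside, 12 of 19 tested GSTs rose.

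**Figure D2:**
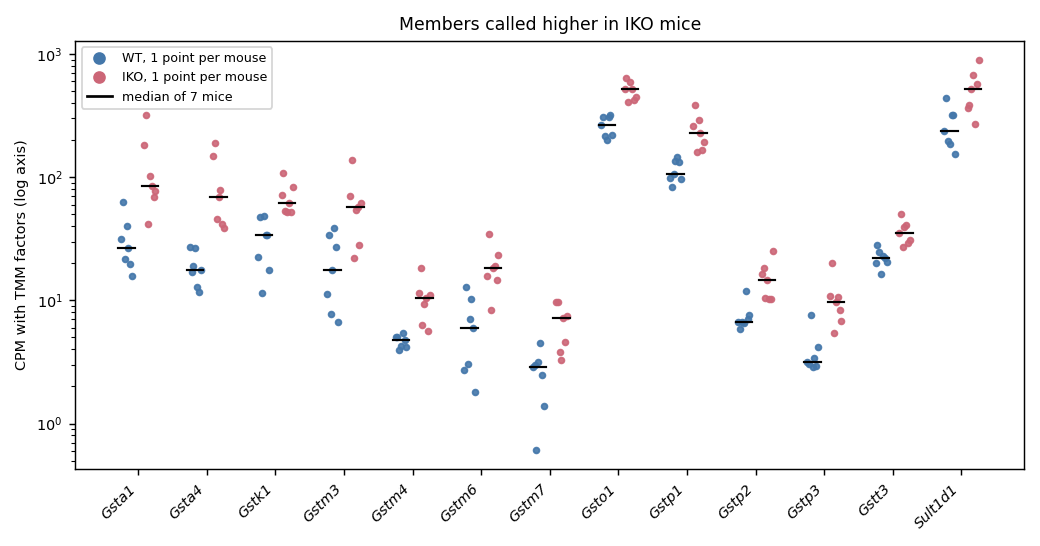
CPM of the 13 members that rose in IKO mice, on a log vertical axis, with 1 point per mouse and a black line at the median of 7 mice. IKO medians lie above WT medians in each gene, and the groups are fully apart in Gsta4, Gstk1, Gstm4, Gsto1 and Gstp1.

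IKO 2 was the highest IKO mouse in 18 of the 23 GST members, IKO 1 in 3 and IKO 7 in 2. The lowest was IKO 3 in 12, IKO 6 in 7, IKO 4 in 3 and IKO 7 in 1. IKO 2 also had the highest summed level of 7 markers of the proximal small intestine, 10720 CPM, followed by IKO 1 with 8437 CPM, and IKO 3 the lowest of the IKO mice, 3176 CPM. In WT mice that sum ran from 915.0 to 4938 CPM. A single gene, Fabp1, made up 74.2% of the sum in IKO 2, 62.0% in IKO 1 and 16.1% to 40.0% in WT mice. The study counts Fabp1 among PPARα target genes and reports its mRNA and protein as higher in the ileum of IKO mice. Without Fabp1 the other 6 markers summed to 767.2 to 3630 CPM in WT and 1891 to 3824 CPM in IKO mice. IKO 7 was then the highest and IKO 2, at 2766 CPM, the fourth of the IKO mice, while IKO 3 was still the lowest. Smooth muscle markers summed to 795.8 CPM in IKO 1 and 391.6 CPM in IKO 2, against at most 30.3 CPM in the other IKO mice. Of the 6 proximal markers tested, 2 were higher in IKO mice, the fatty acid binding protein Fabp1 (log2 fold change 2.17, adjusted p = 0.0277) and the alcohol dehydrogenase Adh6a (2.11, adjusted p = 0.0193), and the median over the 6 was 0.42. The transcription factor Gata4, which defines the proximal intestine, differed by -0.00 on the log2 scale (adjusted p = 0.9995), and the lactase gene Lct by -1.01 (adjusted p = 0.254). The other tested proximal markers were Ckmt1 at 0.58 (adjusted p = 0.155) and Slc40a1 at 0.26 (adjusted p = 0.794). Of 8 ileum markers, 0 passed the test, with a median of 0.48. Log2 fold changes were above 0 in 6 of them and below 0 in Fabp6 (-0.46, adjusted p = 0.772) and Fgf15 (-1.75, adjusted p = 0.0616). The part of the position along the intestine in the GST results was not tested.

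UGT levels spread widely in both genotypes and overlapped in all 8 members. Ugt2b34 was the leading UGT, with 260.6, 538.2 and 858.1 CPM in WT and 176.1, 617.7 and 1073 CPM in IKO mice (log2 fold change 0.18, 95% interval -0.61 to 0.98, adjusted p = 0.771). Ugt2a3, which can glucuronidate bile acids, had 12.7, 36.8 and 128.0 CPM in WT and 25.6, 68.8 and 174.6 CPM in IKO mice (log2 fold change 0.25, 95% interval -0.82 to 1.33, adjusted p = 0.765). In both genes the highest mouse of either genotype was several times the lowest, so the intervals reach from below 0 to nearly 1 or more on the log2 scale. Of the remaining Ugt2b members, Ugt2b35 differed by 0.57 on the log2 scale (adjusted p = 0.224), Ugt2b36 by 0.19 (adjusted p = 0.732) and Ugt2b5 by -0.00 (adjusted p = 0.997).

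Ugt1a1, the enzyme that glucuronidates bilirubin, had 0.966, 9.02 and 42.4 CPM in WT and 4.71, 64.7 and 70.4 CPM in IKO mice. Of the IKO mice, 4 lay between 64.7 and 70.4 CPM, above every WT mouse, but IKO 6 had 32.6 CPM, IKO 4 8.42 CPM and IKO 2 4.71 CPM. The log2 fold change of 1.37 had a 95% interval from -0.19 to 2.93 (adjusted p = 0.218). Ugt1a7c had 1.87, 17.5 and 51.2 CPM in WT and 2.36, 49.2 and 75.1 CPM in IKO mice (log2 fold change 0.68, adjusted p = 0.511). Its lowest mice were WT 2 and IKO 2, the same mice that were lowest for Ugt1a1. Ugt1a6a, an enzyme for planar phenols, had 0, 3.59 and 7.99 CPM in WT and 0, 1.29 and 3.16 CPM in IKO mice (log2 fold change -1.12, 95% interval -2.75 to 0.50, adjusted p = 0.330).

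The order of mice for UGTs was not that for GSTs. IKO 7 was the highest IKO mouse in 7 of the 8 UGT members, and IKO 4, whose library had 50.3% mitochondrial counts, was the lowest in 6. IKO 2, the highest for most GSTs, was the lowest IKO mouse for Ugt1a1 and Ugt1a7c. Among WT mice, WT 3, whose library had 23.9% mitochondrial counts, was the lowest in 4 of the 8. In the fit without WT 3 and IKO 4, 0 UGTs passed as well.

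The Ugt1a genes are a textbook case of shared sequence, since alternative first exons are spliced to common downstream exons. By the annotation, 58.9% of the exonic bases of Ugt1a1, 54.6% of those of Ugt1a7c and 50.3% of those of Ugt1a6a also belong to other Ugt1a genes. With Gm20528, a predicted gene on the other strand, the share of Ugt1a1 was 82.7%. The 6 Ugt1a genes under the minimum had 0 to 21 counts each (Ugt1a2, Ugt1a5, Ugt1a6b, Ugt1a8, Ugt1a9 and Ugt1a10). How reads on the common exons were assigned is not given in the sources used here, so the Ugt1a values rest on an unknown part of each transcript. In the Ugt2 group, Ugt2b5 shared 24.7% of its 100-base words, mostly with Ugt2b38, and the other 4 members under 1%.

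**Figure D3:**
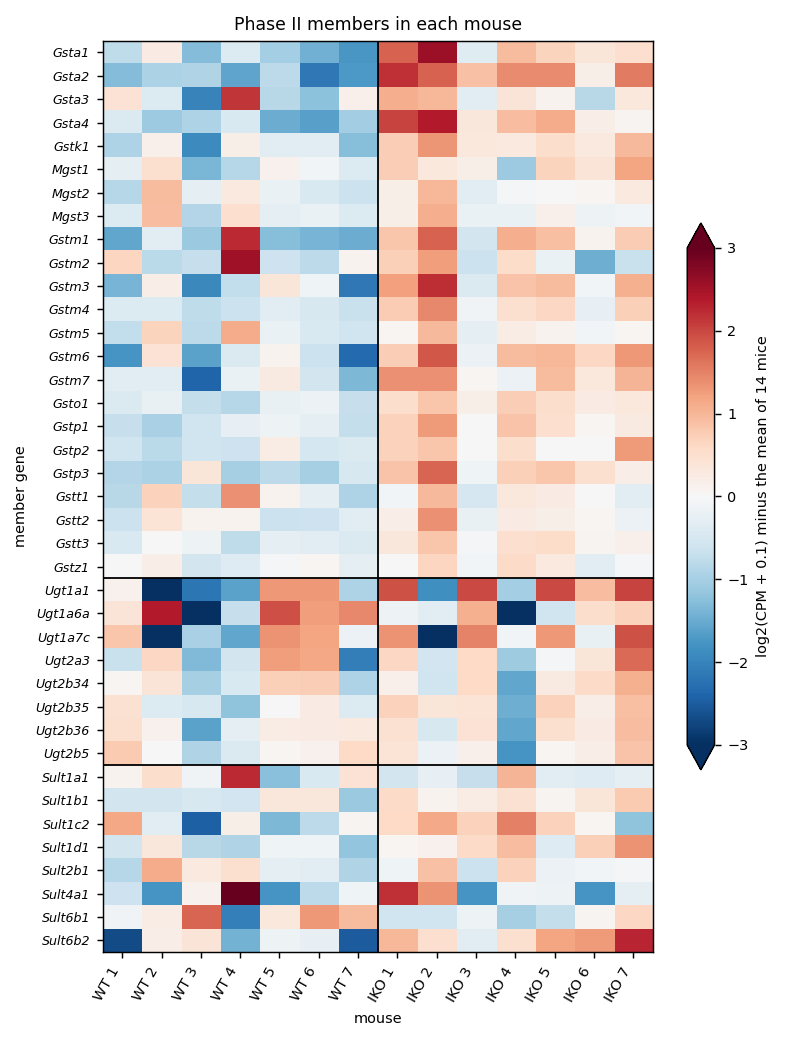
Colour shows log2(CPM + 0.1) of each of the 39 members (vertical axis) in each of the 14 mice (horizontal axis) minus the gene's mean over the mice, with red above and blue below the mean and lines between genotypes and between families. Most GST rows are red in IKO mice and deepest in IKO 2, while UGT rows are blue in IKO 4 and red in IKO 7.

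Sult1d1, which sulfonates catecholamines and other phenols, was the member of its family that rose in IKO mice. It had 154.9, 237.4 and 441.8 CPM in WT and 268.0, 523.9 and 890.7 CPM in IKO mice (log2 fold change 0.98, standard error 0.29, adjusted p = 0.0480). The groups overlapped, since WT 2, WT 5 and WT 6 were above IKO 5, the lowest IKO mouse. The call depended on single mice. It was lost in 12 of 14 fits that left out 1 mouse, all except those without WT 2 or IKO 5, with adjusted p values up to 0.0887.

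Sult1b1, an enzyme for thyroid hormones and small phenols, lies beside Sult1d1 on chromosome 5 and had 168.5, 249.2 and 462.3 CPM in WT and 385.9, 468.0 and 630.1 CPM in IKO mice. WT 5 and WT 6 were the only WT mice within the IKO range. The difference of 0.67 on the log2 scale (standard error 0.23) had an adjusted p of 0.0734, or 0.0271 with DESeq2, 0.0416 without WT 5 and 0.0426 without WT 6. Sult2b1, a sterol sulfotransferase, had 172.0, 266.5 and 703.1 CPM in WT and 207.9, 304.9 and 595.2 CPM in IKO mice (log2 fold change 0.06, 95% interval -0.64 to 0.75). On the stretch of chromosome 5 from 86889767 to 87569027 (mm10), which holds Ugt2b34, Ugt2b35, Ugt2b36, Ugt2b5, Ugt2a3, Sult1b1 and Sult1d1, 1 of the 7 members passed the test.

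The remaining SULTs were low. Sult1a1, the general phenol sulfotransferase, had 0.680, 1.92 and 8.69 CPM in WT and 1.05, 1.39 and 3.72 CPM in IKO mice (log2 fold change -0.75, adjusted p = 0.308), and WT 4 and IKO 4 held the highest values. Sult6b2 had 0.0817, 0.874 and 1.43 CPM in WT and 0.831, 2.22 and 5.54 CPM in IKO mice (log2 fold change 1.79, standard error 0.58, adjusted p = 0.0643), and DESeq2 gave an adjusted p of 0.0164. Sult1c2 differed by 0.85 on the log2 scale (adjusted p = 0.294). Sult4a1 and Sult6b1 did not pass the filter on low counts, and WT 4 held 15.7 CPM of Sult4a1, where the other WT mice had at most 0.272 CPM and IKO mice at most 1.46 CPM. Sult6b1 had 0 to 1.29 CPM in WT and 0.109 to 0.542 CPM in IKO mice.

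Set on the per-length scale of FPKM (reads scaled to gene length and library), the families differed in level. GST members summed to 892.5 ± 245.5 FPKM in WT and 1599 ± 504.3 FPKM in IKO mice (mean ± SD, n = 7 each), a ratio of 1.79. The WT median was exceeded by 7 of 7 IKO mice. The UGT sum was 182.2 ± 93.3 FPKM in WT and 226.5 ± 113.4 FPKM in IKO mice, and the SULT sum 300.4 ± 92.5 FPKM and 480.5 ± 119.3 FPKM. The sums of all 3 families overlapped between genotypes, and being sums over members they carry no test.

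Few members made up most of each sum. Mgst3 with 266.8 ± 125.2 FPKM, Gstp1 with 147.8 ± 31.8 FPKM, Gsto1 with 130.9 ± 26.1 FPKM and Mgst1 with 127.5 ± 50.9 FPKM led the GSTs in WT mice. In IKO mice Gstp1 (318.8 ± 107.2 FPKM) and Mgst3 (308.7 ± 122.3 FPKM) were level within their spread, and Gsto1 (258.5 ± 45.3 FPKM) and Mgst1 (212.0 ± 85.3 FPKM) followed. The mean share of Mgst3 in the GST sum was 28.9% in WT and 19.2% in IKO mice. Gsta1 made up 3.47% in WT and 7.45% in IKO mice, and Gsta4 1.74% and 4.04%. Ugt2b34 made up 69.2% of the UGT sum in WT and 64.1% in IKO mice, Ugt2a3 14.2% and 15.4%, Ugt1a1 3.68% and 8.26%, and Ugt1a7c 2.99% and 4.03%. In the SULT sum, Sult1b1 held 35.6% and 36.6%, Sult1d1 35.1% and 43.3%, and Sult2b1 28.0% and 19.5%. Sult1a1, the next in order, had a mean of only 1.44 FPKM over the 14 mice.

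**Figure D4:**
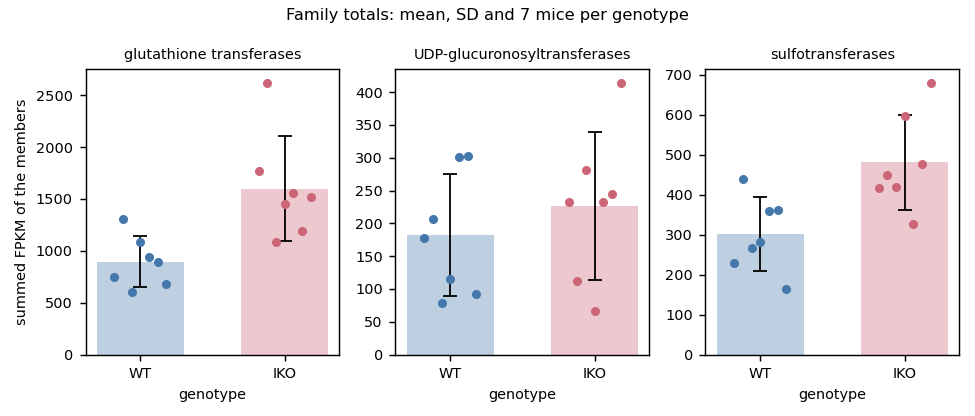
Summed FPKM of the members of each family (vertical axes from 0) in WT and IKO mice, with bars for the mean, lines for the SD and 1 point per mouse. The GST mean was 892.5 in WT and 1599 in IKO mice, and the points of the genotypes overlap in all 3 families.

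Among genes that supply and follow these reactions, glutathione synthesis and recycling had 3 of 14 tested genes higher and 0 lower in IKO mice (median 0.25 on the log2 scale). Over all genes tested, 4.38% rose and 4.28% fell. This list and those below were chosen with earlier results of these data known, so their counts and medians are descriptions only. Gclc and Gclm, the catalytic and modifier subunits of the enzyme for the first step of glutathione synthesis, rose with log2 fold changes of 0.87 (standard error 0.25, adjusted p = 0.0437) and 0.76 (standard error 0.22, adjusted p = 0.0444). Chac1, which breaks glutathione down, rose as well (1.35, standard error 0.34, adjusted p = 0.0283). Levels of Gclc were 55.4 to 161.4 CPM in WT and 121.6 to 226.8 CPM in IKO mice, so the groups overlapped.

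Genes that supply the other donors did not pass the test. In lists this small, 0 calls lies near the shares of all genes tested (4.38% higher, 4.28% lower). For UDP-glucuronate, 0 of 5 genes passed (median 0.02), with Ugdh, which makes it from UDP-glucose, at 0.63 (adjusted p = 0.0951). For PAPS and sulfate, 0 of 11 genes passed (median 0.21), with 7 above 0 and Slc26a2 at 1.09 (adjusted p = 0.120). For methyl, acetyl and acyl conjugation, 0 of 8 passed (median 0.13). Among 13 other transferases of the same superfamilies, 0 rose and 1 fell (median -0.21). That gene was Hpgds, the prostaglandin D synthase of the sigma GST class and a gene of tuft and mast cells, which had 2.66 to 5.30 CPM in WT and 0.702 to 3.33 CPM in IKO mice (log2 fold change -1.31, standard error 0.32, adjusted p = 0.0225). Hpgds was also 1 of the 5 tested tuft cell markers, all of which had log2 fold changes below 0 (median -0.52), Dclk1 at -0.94 (adjusted p = 0.0680) among them. The tuft cell list summed to 21.4 to 49.5 CPM in WT and 10.7 to 26.3 CPM in IKO mice, and the part of these cells in the result for Hpgds was not tested.

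The phase I and hydrolase list was likewise chosen with earlier results known, so its count and median are descriptions only. Over all genes tested, 4.38% rose and 4.28% fell. Of 12 phase I and hydrolase genes tested, 4 rose and 0 fell, with a median of 0.96. The 3 with the largest log2 fold changes were the cytochromes P450 Cyp3a11 (4.61, standard error 0.69, adjusted p = 0.00179), Cyp2c55 (4.45, standard error 0.53, adjusted p = 0.000267) and Cyp2c66 (4.38, standard error 0.73, adjusted p = 0.00375), and Aldh1a1 was the fourth. Cyp3a11 ran from 7.71 to 60.2 CPM in WT and from 38.5 to 1480 CPM in IKO mice. Of 7 conjugate exporters, Abcg2, which exports sulfate conjugates, rose (1.65, standard error 0.32, adjusted p = 0.00902), and Abcc1, which exports glutathione conjugates, fell (-1.24, standard error 0.36, adjusted p = 0.0446). Abcc1 was low, at 2.45 to 10.9 CPM in WT and 1.31 to 3.6 CPM in IKO mice. Abcc2 of the same list had 61.85 to 368.4 CPM in WT and 70.2 to 507.3 CPM in IKO mice (0.82, adjusted p = 0.247). Of the 7 exporters, 4 had log2 fold changes above 0 (median 0.61).

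Of 15 regulators of phase II genes tested, 2 rose and 1 fell, where 4.38% of all genes tested rose and 4.28% fell. This list too was chosen with earlier results known, so its counts and median are descriptions only. Ppara rose (log2 fold change 1.55, standard error 0.40, adjusted p = 0.0285), as did the vitamin D receptor gene Vdr (0.94, standard error 0.17, adjusted p = 0.00549). Ahr, the aryl hydrocarbon receptor gene, fell (-1.02, standard error 0.27, adjusted p = 0.0349). Vdr had 205.1 to 348.3 CPM in WT and 420.6 to 588.2 CPM in IKO mice, without overlap. The median over the 15 was 0.37. The transcripts of NRF2 (Nfe2l2) and of its inhibitor Keap1 had log2 fold changes of -0.03 (adjusted p = 0.938) and 0.06 (adjusted p = 0.800), and that of PXR (Nr1i2) one of 0.73 (adjusted p = 0.0675). Of the 15, 11 had log2 fold changes above 0, Maff at 0.72 (adjusted p = 0.0510) among them. These are levels of RNA, and the activity of the proteins was not tested.

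**Figure D5:**
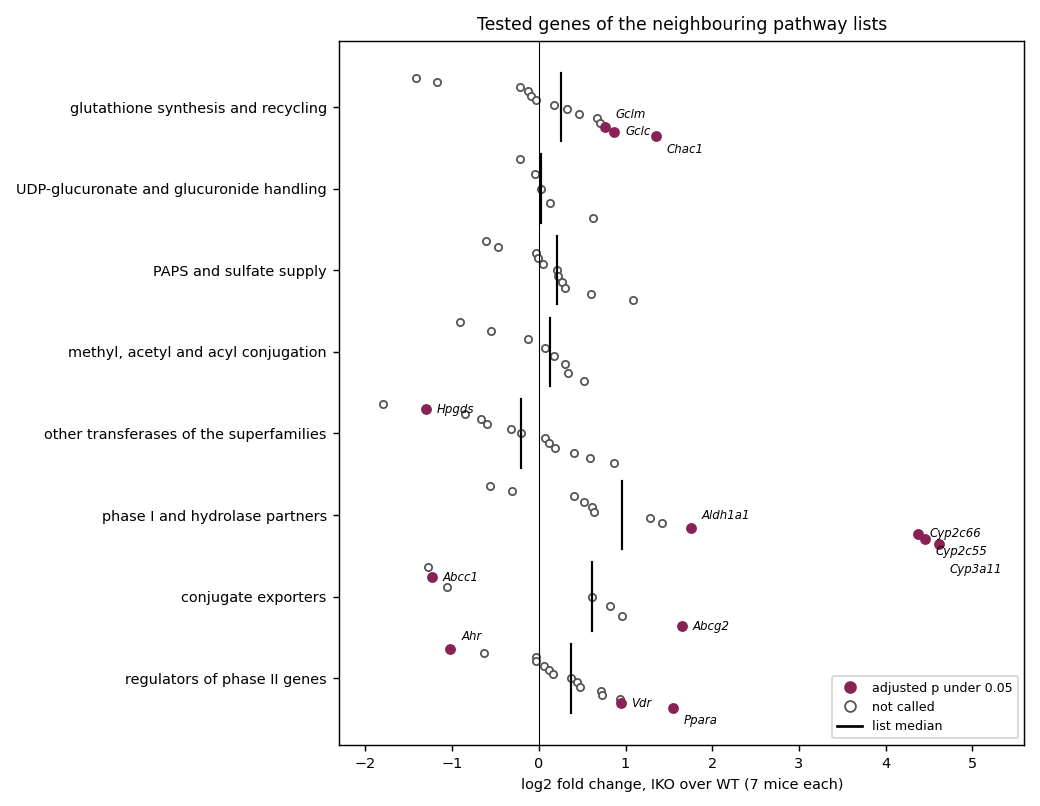
Log2 fold change (horizontal axis, IKO over WT, 7 mice each) of each tested gene in 8 lists of neighbouring genes, with filled points for an adjusted p under 0.05 and a black line at the list median. Filled points stand in 5 of the 8 lists, and the 3 cytochrome P450 genes lie beyond 4.

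RefSeq promoter sequences (250 bases before to 50 after a start, GRCm38.p6) were present for 36 of the 39 members, with 46 promoters, and were searched on both strands for letters that known regulators bind. The antioxidant response element, bound by NRF2, is shown because GST genes are its classic targets. The search left out 1 chromosome, which holds no member, and all promoters here means the 32851 searched. Its core TGACNNNGC occurred in 12.4% of all 32851 promoters and in 4 of the 46 member promoters (8.70%), those of Gsta3, Gstm5, Gstm7 and Mgst1. Of 12 members that rose and were in the table, only Gstm7 had it. The matches are given 5′ to 3′ along the gene's strand, with the core in capitals.
Gsta3, chr1:21240454-21240482, + strand: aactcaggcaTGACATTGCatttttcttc
Gstm5, chr3:107895802-107895830, + strand: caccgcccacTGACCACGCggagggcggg
Gstm7, chr3:107931725-107931753, - strand: tctgaagaccTGACAAAGCgaagccaatc
Mgst1, chr6:138140461-138140489, + strand: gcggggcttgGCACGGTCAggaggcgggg
In Mgst1 the core lies on the opposite strand, so its reverse complement stands in capitals. The xenobiotic response element core GCGTG, bound by the aryl hydrocarbon receptor, occurred in 32.4% of all promoters and 26.1% of member promoters, with 4 of the 12 members that rose (Gsta1, Gstp1, Gstp3 and Sult1d1). The HNF1 half-site GTTAAT occurred in 7.10% of all and 13.0% of member promoters, and the CDX2 site TTTATG in 11.9% and 8.70%. A direct repeat of AGGTCA with 1 base between, the form that PPARα binds with RXR, occurred in 13 of the 32851 promoters and in 0 of the 46. These are matches of letters within 300 bases and say nothing of binding. The exact direct repeat was so rare among all promoters that 0 of the 46 says nothing on looser forms of it.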

How the data were processed

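The 14 libraries, 7 WT and 7 IKO, were grouped by the sample titles, and the count columns headed KO were read as IKO. Per the submitters' processing notes the authors used HISAT2 2.0.5, featureCounts 1.5.0-p3, DESeq2 1.16.1 and mm10. The deposited counts are whole reads per gene without normalization. The deposited FPKM equal the counts per kilobase divided by the DESeq2 size factor of the library times 1 constant, as checked on the values. Strand and multi-mapping settings are not given in the sources used here. The libraries held 14749669 to 21557468 counts, and no 2 replicates agreed within sampling noise.

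Genes were filtered with filterByExpr, scaled by TMM and tested with edgeR 4.0.16 (glmQLFit, glmQLFTest) under R 4.3.3, in a model of genotype alone, and p-values were adjusted by Benjamini-Hochberg over 13846 genes. The study used DESeq2, which was run as an alternative (1.42.0), as were limma 3.58.1 on log2(FPKM + 1) and log2(FPKM + 0.1), other scalings and filters, a replicate block and fits without single mice. The standard error is the log2 fold change divided by the square root of F. The test was checked on simulated counts. Genes named in full are members with an adjusted p under 0.05, the 4 members per family with the highest mean FPKM, members without overlap, the 2 genes on either side of the count minimum, and called genes of the lists. Other members are named to account for each. The members and lists were chosen with earlier results of these data known. Shared sequence was taken from GENCODE M21, where 36 of the 39 members have the same start and end as in the count table (the exceptions are Gstp1, Gstp2 and Gstp3). Promoters came from RefSeq. No protein sequences were used here. The p-values set the difference between genotypes against the spread between mice. Of the pathway lists, Bpnt2 and Sts matched no gene name in the table.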

Additional observations from a re-analysis of the deposited data

Results flagged for a closer look

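In 84 groups of 7 mice (39 members and 3 family sums in each genotype), 16 values stood apart from the rest by Dixon's criterion, where 4.2 would be flagged at 1 in 20. The gap to the nearest mouse was over 0.568 of the group's range in each. No explanation was weighed for any of them.

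In WT 4, 5 members stood apart. Gsta3 was at 6.51 CPM (next WT mouse 1.92), Gstm1 at 121.2 CPM (next 19.97), Gstm2 at 18.1 CPM (next 4.78), Sult1a1 at 8.69 CPM (next 2.58) and Sult4a1 at 15.7 CPM (next 0.272). In IKO 2, 6 GST members did. They were Gstm3 at 137.7 CPM (next IKO mouse 70.5), Gstm5 at 14.3 CPM (next 8.53), Gstp3 at 20.2 CPM (next 10.8), Gstt2 at 100.1 CPM (next 46.1), Mgst2 at 445.0 CPM (next 272.9) and Mgst3 at 633.9 CPM (next 338.0).

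Sult1a1 stood apart in IKO 4 at 3.72 CPM (next 1.47). IKO 7 was apart for Sult6b2 at 5.54 CPM (next 2.70) and Ugt2a3 at 174.6 CPM (next 83.5). In WT mice, Gstp3 was apart in WT 3 at 7.61 CPM (next 4.18) and Gstp2 in WT 5 at 11.9 CPM (next 7.54).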

How the results depend on the processing

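For the 13 members that rose, 337 values came from alternatives, of which 276 also passed, 61 no longer passed and 0 had the other sign. Gsta1, Gsta4 and Gsto1 passed in all 26 of their alternatives, and Sult1d1 failed in 17 of 26, Gstm3 in 13 of 26 and Gstm7 in 12 of 25. Of 590 values of members that did not pass, 13 passed and 50 changed sign. Gsta2, Sult4a1 and Sult6b1 did not pass the filter on low counts in the fit reported.

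Of the 13846 genes, 1200 passed. With DESeq2 2578 passed, with limma-voom and sample weights 1889, with no filter 508, with limma on log2(FPKM + 1) without a filter 614, without both WT 3 and IKO 4 648, and without single mice 515 (IKO 5) to 1371 (WT 2). An alternative chosen after seeing the data, library size alone without TMM factors, moved the median of all genes from -0.09 to -0.49, gave 3380 genes (5.77% of them higher, against 50.6%) and left 7 members higher, all 7 GSTs and 0 SULTs. The median of the members moved to 0.31 and lay 0.80 above that of all genes, against 0.78 with TMM factors. The count of members that rose was 8 (without IKO 2) to 14 without single mice, and for GSTs 8 to 13. The upper ends include Gsta2, which passed the filter on low counts in some of these fits. Without WT 2, for example, 37 members were tested and not 36, and the 13 GSTs were those of the fit reported plus Gsta2. Gsta2 reached the count minimum through the IKO mice, so its calls are a description only. For SULTs the count was 3 with DESeq2 and with limma on log2(FPKM + 1) or log2(FPKM + 0.1), and 2 with limma-voom. It was 0 with no filter in edgeR or limma and 0 without both WT 3 and IKO 4. Without single mice it was 0 to 1. No member was lower in any of these fits, and no UGT passed in any. The causes of these moves were not tested.

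Sample numbers 1 to 7 recur in both genotypes, but the labels do not say that they pair mice, and deviations of same-numbered mice correlated at -0.305 to 0.232. With the number as a replicate block, 362 genes, 7 members, 7 GSTs and 0 SULTs passed.

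Log2 fold changes that changed sign all belonged to members that did not pass. With library size alone these were Gsta3 (-0.43), Gstm5 (-0.20), Gstt1 (-0.37), Gstz1 (-0.10), Mgst2 (-0.052), Mgst3 (-0.17), Sult2b1 (-0.30), Ugt2a3 (-0.016), Ugt2b34 (-0.12) and Ugt2b36 (-0.195). Without both WT 3 and IKO 4 they were Gsta3 (-0.15), Gstt1 (-0.13), Sult2b1 (-0.020) and Ugt2b5 (0.044). Gstt1 was at -0.0053 without mitochondrially encoded genes and -0.057 with at least 10 counts in every sample. Ugt2b5 was at 0.031 with DESeq2, 0.023 with RLE scaling, 0.0105 with no filter and 0.056 with limma-voom. Without single mice, Gsta3 ran from -0.15 to 0.85, Gstm2 from -0.76 to 0.45, Gstm5 from -0.011 to 0.47, Gstt1 from -0.19 to 0.37, Mgst3 from -0.050 to 0.41, Sult2b1 from -0.11 to 0.33, Ugt2a3 from -0.11 to 0.53, Ugt2b34 from -0.0041 to 0.35 and Ugt2b5 from -0.17 to 0.16.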
